A study of Drosophila melanogaster with 13 samples.

Results

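The comparison described here sets ATAC-seq against FAIRE-seq in wild type eye-antennal discs of *Drosophila melanogaster*, region by region over all open chromatin regions of the study. Its members were taken by label from the deposited table of raw read counts: 5 of the 13 samples of the series, or 5 of its 11 open chromatin samples, and all 36506 merged peaks with counts of 36507 that are listed. No measured value was used to choose them. A merged peak is a region made by joining the overlapping peaks that were called in the single samples, tumor samples included. ATAC-seq was done on 10 unfixed discs per sample of w;;FRT82 (a marker stock with a recombination site on 3R), of the inbred isogenic line DGRP-208 and of the Optix-GFP stock, and FAIRE-seq on 200 discs per sample from fixed head complexes of w;;FRT82 and CantonS. All discs came from larvae of the third instar in the wandering stage. Each strain was measured once per technique, and FRT82 is the only strain measured by both, so that the spread within a technique holds the difference between strains and the remaining strains cannot be told apart from the technique. A p-value here measures the spread between these 5 samples. Early and late tumors served as further libraries of both techniques, with 1 sample per stage and technique. Their discs carried clones, made with eyFlp and marked with GFP under act>y+>Gal4, that expressed RasV12 and were homozygous for scrib2 on an FRT82 chromosome, so that tumor discs also held unmutated cells, and the late sample was taken in a prolonged larval stage. CTCF binding was taken from 1 ChIP-seq sample of CantonS discs of the same larval stage, compared by the authors with its input.

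Open chromatin marks promoters, enhancers and insulators, where bound transcription factors keep nucleosomes away. In ATAC-seq, the Tn5 transposase cuts accessible DNA in nuclei and inserts sequencing adapters there, so that a read marks a cut. In FAIRE-seq, chromatin is fixed with formaldehyde and sheared, and a phenol-chloroform extraction leaves the DNA that is poor in nucleosomes in the aqueous phase. CTCF is a zinc finger protein that binds insulators, elements that separate neighboring regulatory domains.

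The 3 ATAC-seq samples held 8256157, 7851617 and 7104145 reads in merged peaks (FRT82, DGRP-208, Optix-GFP), and the FAIRE-seq samples held 2375435 (FRT82) and 5792887 (CantonS). The share of merged peaks with fewer than 10 reads was between 3.51% and 7.39% in the ATAC-seq samples, 10.7% in FRT82 FAIRE-seq and 0.468% in CantonS FAIRE-seq. Samples of 1 technique differed by more than sampling noise (chi-square of 4.23 to 12.03 per degree of freedom), so that none was counted as a repeat of another. Levels are given as counts per 1000000 reads in merged peaks after TMM normalization (CPM). Wild type and tumor samples were normalized separately, so that tumor levels are read between techniques only. A log2 fold change is that of ATAC-seq over FAIRE-seq from edgeR's quasi-likelihood test.

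Of the 36506 merged peaks, 3630 were higher by ATAC-seq and 4816 by FAIRE-seq at an adjusted p under 0.01, which is 9.94% and 13.2% of the peaks and 23.1% in all. At an unadjusted p under 0.05 there were 17269 peaks, or 47.3%. The levels of the techniques did not overlap at any of the 8446 called peaks, whereas over all peaks every ATAC-seq sample lay above both FAIRE-seq samples at 29.1% and below both at 31.7%. Both sets had different kinds of peaks. Those higher by ATAC-seq were wide and high, with a median width of 558.5 bp and median levels of 86.1 CPM by ATAC-seq and 33.8 CPM by FAIRE-seq. Those higher by FAIRE-seq were narrow and low, with a median width of 203 bp and median levels of 3.43 CPM by ATAC-seq and 13.5 CPM by FAIRE-seq. The 28060 peaks that were not called had a median width of 261 bp and 11.7 CPM by ATAC-seq against 11.8 CPM by FAIRE-seq. The absolute log2 fold change had a median of 1.32 among peaks higher by ATAC-seq and 1.89 among those higher by FAIRE-seq. The counts rested on both FAIRE-seq samples: 147 peaks were higher by ATAC-seq and 729 by FAIRE-seq without CantonS, and 1399 and 1985 without FRT82 FAIRE-seq. When samples were scaled by their total reads in merged peaks in place of TMM, the median of all peaks moved from -0.0047 to -0.41 on the log2 scale, and 1721 peaks were higher by ATAC-seq and 8011 by FAIRE-seq. All directions below are therefore relative to the median peak.

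The same direction was seen in tumor libraries, which share no library with the wild type comparison. In the 4 tumor samples, with the stage as a block, 5937 peaks were higher by ATAC-seq (16.3%) and 5772 by FAIRE-seq (15.8%), or 32.1% in all, and 48.1% had an unadjusted p under 0.05. The technique difference itself differed between tumors and wild type at 4 peaks (0.011%), with 17.3% at an unadjusted p under 0.05. Of the 3630 wild type peaks higher by ATAC-seq, 3276 had the same sign in tumors (90.2%) and 2008 were also called there in the same direction, against 1 called in the opposite one. Of the 4816 peaks higher by FAIRE-seq in wild type, 4511 had the same sign in tumors (93.7%), 3516 were called in the same direction and 40 in the opposite one. Among peaks not called in wild type, the sign was the same at 65.0%. Across the 36503 peaks with tumor counts, the log2 fold changes of wild type and tumors had a Pearson r of 0.69 and a Spearman rho of 0.60, as a description, since the same regions and the same processing stand behind both.

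The reads of the ATAC-seq samples were concentrated in fewer and higher peaks than those of the FAIRE-seq samples. In each sample the peaks were ranked by their own count, and the highest 10% held 50.9%, 48.8% and 52.3% of the ATAC-seq reads in merged peaks (FRT82, DGRP-208, Optix-GFP) and 39.0% and 36.8% of the FAIRE-seq reads (FRT82, CantonS). The lower 50% of the peaks held 8.25% ± 0.830 of the ATAC-seq reads (SD, n = 3) and 14.4% ± 0.966 of the FAIRE-seq reads (SD, n = 2). Neither share overlapped between the techniques. The ratio of the 95th to the 5th percentile of CPM was 99.2 ± 22.5 by ATAC-seq (n = 3) and 31.4 ± 8.18 by FAIRE-seq (n = 2). The SD of log2(CPM + 1) over all peaks was 1.77 ± 0.0714 by ATAC-seq and 1.38 ± 0.0753 by FAIRE-seq. With 3 samples against 2, an exact permutation test has 10 splits and can reach no p below 0.1, which it gave for all of these measures (two-sided). With the 4 tumor samples added and the technique permuted within wild type, early and late tumors, the exact permutation p of both read shares was 0.025, the smallest that the 40 arrangements allow, and 0.05 after Benjamini-Hochberg adjustment over 14 shares. In the early and late tumors the highest 10% of the peaks held 53.7% and 52.95% of the ATAC-seq reads and 39.3% and 39.7% of the FAIRE-seq reads.

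**Figure D1:**
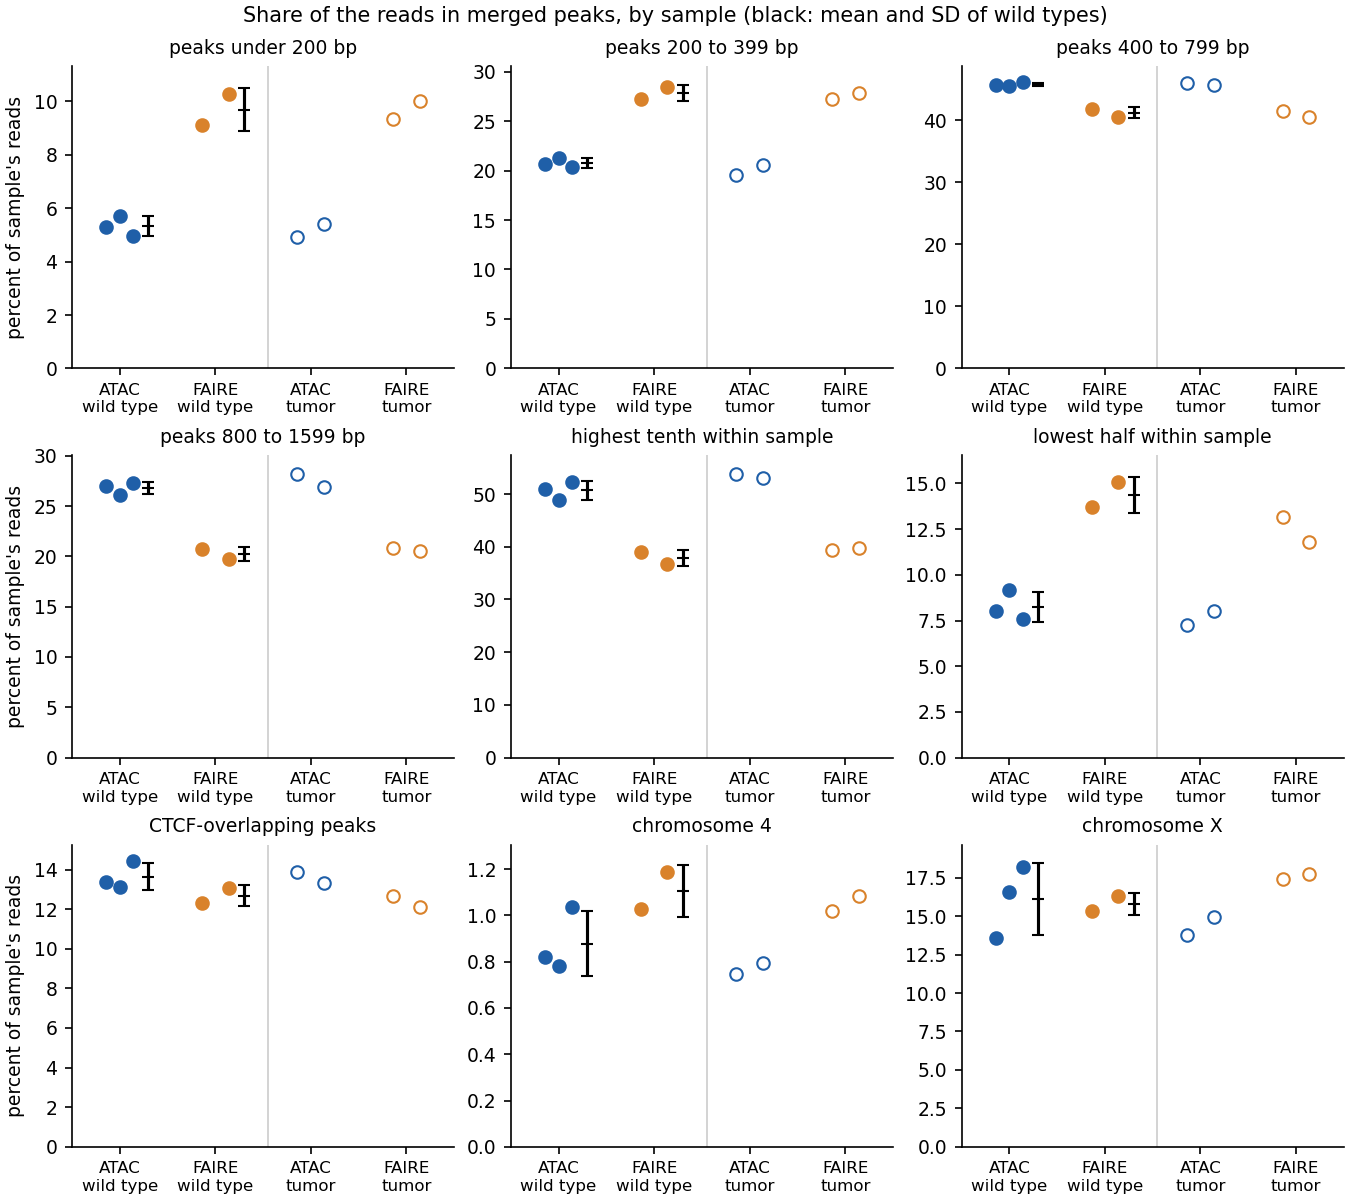
Percent of each sample's reads in merged peaks that fall in 9 classes of peaks. In each panel the wild type samples are on the left and the tumor samples on the right, each with ATAC-seq before FAIRE-seq. Filled points are wild type samples, open points tumor samples, and black bars the wild type mean ± SD. The highest 10% of peaks hold between 48.8% and 52.3% of the wild type ATAC-seq reads, above the 36.8% and 39.0% of FAIRE-seq, while the chromosome X shares of both techniques overlap.

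The width of the merged peak separated the techniques in every sample. Classes of width include their lower limit and not their upper one. Peaks under 200 bp held 5.31%, 5.70% and 4.96% of the ATAC-seq reads and 9.12% and 10.3% of the FAIRE-seq reads. Peaks of 800 to 1600 bp held 26.8% ± 0.589 of the ATAC-seq reads (SD, n = 3) and 20.2% ± 0.718 of the FAIRE-seq reads (SD, n = 2). The classes between them followed the same order, with 20.8% ± 0.484 by ATAC-seq and 27.8% ± 0.797 by FAIRE-seq at 200 to 400 bp, and 45.8% ± 0.262 by ATAC-seq and 41.2% ± 0.879 by FAIRE-seq at 400 to 800 bp. In each of the 5 width classes the wild type samples did not overlap between techniques, nor did all 9 samples, and the exact permutation p was the smallest possible in both designs (0.1 with 5 samples, adjusted 0.2, and 0.025 with 9 samples, adjusted 0.05). Merged width comes from peaks called on these same reads, tumors included, so that these p-values are no independent evidence of a link with width.

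By single peaks, the median log2 fold change was -0.44 in the 11966 peaks under 200 bp, -0.06 in the 13559 peaks of 200 to 400 bp, 0.43 in the 8876 peaks of 400 to 800 bp, 0.69 in the 2056 peaks of 800 to 1600 bp and 0.64 in the 49 wider ones. Under 200 bp, 119 peaks were higher by ATAC-seq (0.994%) and 2320 by FAIRE-seq (19.4%). At 800 to 1600 bp, 764 were higher by ATAC-seq (37.2%) and 44 were higher by FAIRE-seq (2.14%). The balance of calls thus turned between 200 to 400 bp, where 5.42% were higher by ATAC-seq and 14.1% by FAIRE-seq, and 400 to 800 bp, where 22.4% were higher by ATAC-seq and 6.02% by FAIRE-seq. Without CantonS FAIRE-seq the class of 400 to 800 bp had 76 peaks higher by ATAC-seq and 80 by FAIRE-seq, and with total reads 997 and 1151, so that the calls turned between this class and that of 800 to 1600 bp (61 and 8, and 478 and 131), while the median of the 400 to 800 bp class stayed above 0 (0.38 and 0.03). The tumor libraries gave medians of -0.37, -0.06, 0.42, 0.69 and 0.72 over the same 5 classes. In the FRT82 strain alone, with 1 library per technique and no test, they were -0.37, -0.10, 0.34, 0.63 and 0.64. Width here is that of the merged peak, which joins peaks of both techniques and of tumors. These peaks were called on the same reads, so that width and fold change are not independent.

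**Figure D2:**
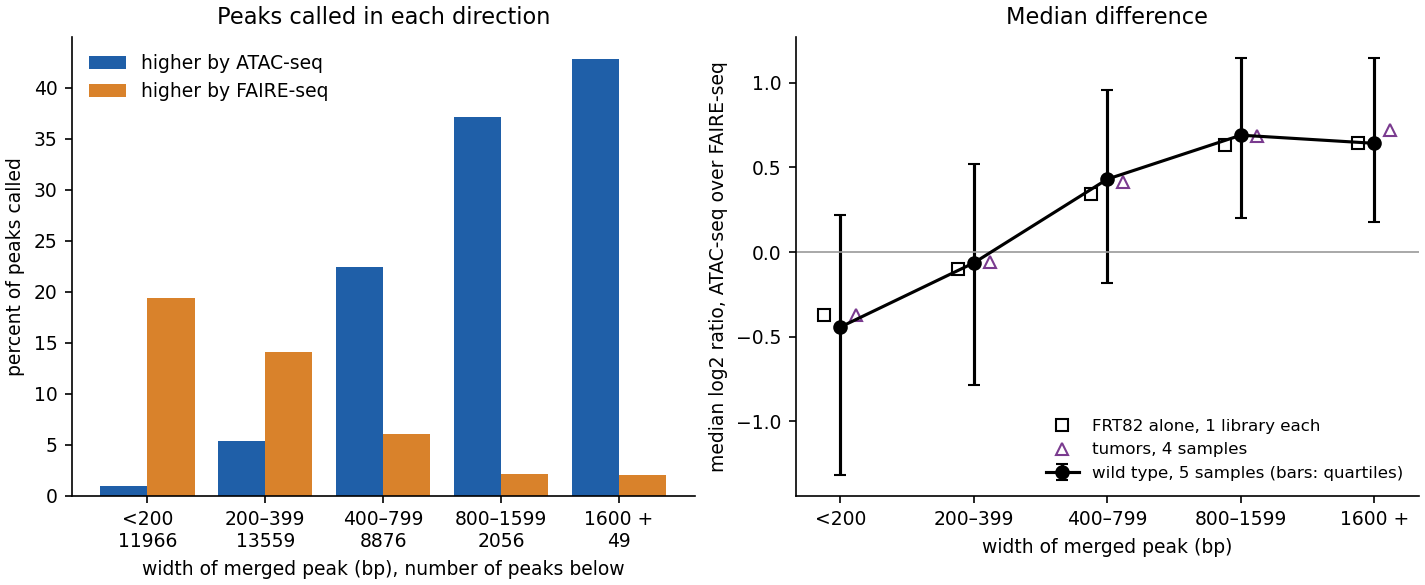
Technique difference by width of the merged peak in bp. The left panel gives the percent of peaks in each width class that were higher by ATAC-seq (blue) or by FAIRE-seq (orange) at an adjusted p under 0.01, and the right panel the median log2 ratio of ATAC-seq over FAIRE-seq with quartiles, with the FRT82 strain (squares) and the tumors (triangles) beside it. The median goes from -0.44 under 200 bp to 0.69 at 800 to 1600 bp, and all 3 sets of libraries cross 0 between the second and the third class.

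The height of a peak, taken as the mean over both techniques of log2(CPM + 1), ran with its width (Pearson r 0.81 and Spearman rho 0.85 over the 36506 peaks, which share their libraries) and with the technique difference. The lowest 10% of peaks had a median log2 fold change of -0.84, with 0.301% higher by ATAC-seq and 24.6% higher by FAIRE-seq. The highest 10% had a median of 0.79, with 42.9% higher by ATAC-seq and 0.685% higher by FAIRE-seq. The medians increased in each step from the lowest to the highest 10%. Since the same counts give height and fold change, the peaks were also ranked by their height in the 4 tumor samples, which the wild type fold change does not use. The highest 10% then had a median of 0.59, with 31.0% higher by ATAC-seq and 2.11% by FAIRE-seq, but the lower classes ran the other way: the medians decreased in each step from 0.07 in the lowest 10% to -0.33 in the sixth class. The excess of ATAC-seq in the highest peaks was therefore seen with both rankings. The lowest 10% had a median below 0 with the wild type ranking only, but in the ranking from tumors too fewer of its peaks were higher by ATAC-seq (1.84%) than by FAIRE-seq (11.7%). In the ranking from tumors the share of peaks higher by FAIRE-seq was between 11.2% and 19.1% in the 8 lowest classes.

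**Figure D3:**
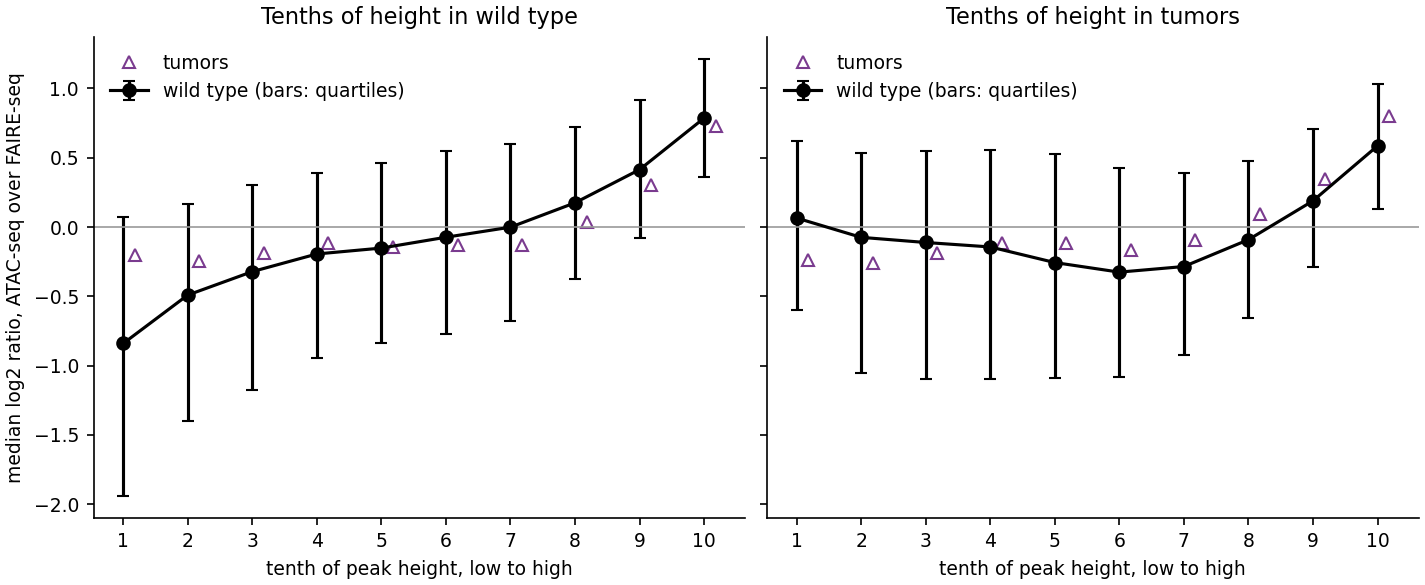
Median log2 ratio of ATAC-seq over FAIRE-seq in wild type with quartiles, by classes of 10% of the peaks from the lowest to the highest, with the tumor median as triangles. Peaks are ranked by height in wild type (left) or in the tumor samples (right). The left panel climbs from -0.84 to 0.79, and the right panel is between -0.33 and 0.07 up to the eighth class and reaches 0.59 in the last.

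In the wild type samples, height went with the difference when width was held in a class, whereas width did so in part of the height classes only. Among the highest of 3 height classes, the median log2 fold change was 0.22 under 200 bp (83 peaks), 0.14 at 200 to 400 bp, 0.51 at 400 to 800 bp and 0.70 at 800 to 1600 bp. In the middle class it was -0.39, -0.05 and 0.08 in the 3 narrower classes and -0.64 in the 34 peaks of 800 to 1600 bp. In the lowest class the median decreased with width. It was -0.47 under 200 bp (9368 peaks), -0.53 at 200 to 400 bp (2670 peaks) and -1.17 at 400 to 800 bp. Among peaks of 400 to 800 bp, it was -1.17 in the lowest of the 3 height classes (131 peaks), 0.08 in the middle and 0.51 in the highest. Of those 131 low peaks, 34 were higher by FAIRE-seq (26.0%). The tumor libraries did not share this. There the same 131 peaks had a median of 0.43, and the 34 peaks of 800 to 1600 bp had 0.76. The tumor median increased with width up to 1600 bp in each height class, with -0.30, 0.13 and 0.43 in the lowest. In the middle class it was -0.61, -0.13, 0.46 and 0.76, and in the highest -0.10, -0.03, 0.40 and 0.68. At 400 to 800 bp it was similar over the height classes, with 0.43, 0.46 and 0.40. Height here comes from the same wild type counts as the fold change.

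The 10 largest differences in favor of ATAC-seq were between 6.30-fold and 8.53-fold, among called peaks with a mean of at least 10 reads. The first was a region of 1105 bp at chr2R:3133614-3134718 (all positions are in the dm3 build), with 1101, 752 and 1203 CPM by ATAC-seq (FRT82, DGRP-208, Optix-GFP) and 139 and 100.2 CPM by FAIRE-seq (FRT82, CantonS), a log2 fold change of 3.09 (SE 0.29, adjusted p = 3.3e-05). It was called as a peak in all 5 samples. Peaks of its width class had a median of 119 CPM by ATAC-seq and 76.2 CPM by FAIRE-seq, so that it stood out from them mainly by ATAC-seq. In tumors its log2 fold change was 1.08. A shorter one of 395 bp, at chr3R:9616039-9616433, had 139, 96.0 and 207 CPM by ATAC-seq and 20.4 and 16.5 CPM by FAIRE-seq (log2 fold change 3.01, SE 0.34). In tumors it was low by both techniques, with 5.21 and 5.93 CPM by ATAC-seq and 5.05 and 3.06 CPM by FAIRE-seq in the early and late samples. Of the 10 regions, 9 were called as a peak in no FAIRE-seq sample, and 7 were called in all 3 ATAC-seq samples. They had a median width of 374.5 bp and none overlapped a CTCF peak. All 10 had the same sign in tumors, where 2 were called.

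The 10 largest differences in favor of FAIRE-seq were larger and in smaller regions, between 100 and 228 bp wide, 9 of them under 200 bp. All 10 were called as a peak in no ATAC-seq sample, 2 were called in both FAIRE-seq samples and 3 in neither. All but 1 had between 0 and 6 reads over the 3 ATAC-seq samples, so that these ratios rest on few reads. At chrX:21834834-21835061, FAIRE-seq was far above the 95th percentile of its own peaks (82.5 and 72.1 CPM) and ATAC-seq was near or below its median peak (11.4 to 11.7 CPM): the 3 ATAC-seq samples had 27, 95 and 39 reads (3.67, 12.8 and 6.46 CPM) and the FAIRE-seq samples 2658 and 7705 reads (983 and 1085 CPM). The log2 fold change was -7.07 (SE 0.44, adjusted p = 3.3e-05), or 135-fold higher by FAIRE-seq. The tumors repeated it, with 7.82 and 9.88 CPM by ATAC-seq and 689 and 405 CPM by FAIRE-seq in the early and late samples. Of the other 9 regions, chr3L:7123207-7123372 had 26.6 and 16.0 CPM by FAIRE-seq, above the median peak of both FAIRE-seq samples, and the remaining ones were below it. At chr2L:14518154-14518260 no ATAC-seq sample had a read, while FAIRE-seq had 14 and 37 reads (5.18 and 5.21 CPM), so that ATAC-seq was at least 36.1-fold lower when 3 reads over the 3 ATAC-seq samples are taken as the floor. Only this peak was called with no ATAC-seq read. The tumors did not share its absence, with 5.87 and 10.7 CPM by ATAC-seq and 6.02 and 15.6 CPM by FAIRE-seq. At chr3R:16642181-16642304 each ATAC-seq sample had 1 read and the FAIRE-seq samples had 22 and 66 reads, a ratio of ATAC-seq over FAIRE-seq of 0.0161 (exact 95% interval 0.00325 to 0.0485, counting error only). In all, 21 peaks higher by FAIRE-seq had at most 3 ATAC-seq reads over the 3 samples, and no peak higher by ATAC-seq had so few FAIRE-seq reads. Of the 10 regions, 9 had the same sign in tumors, 8 were called there in that direction, and chr3R:6635428-6635530 was called in the opposite one (log2 fold change -6.06 in wild type and 1.58 in tumors).

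Among the highest peaks of the wild type, differences in favor of ATAC-seq were common and moderate. The 5 highest peaks that ATAC-seq favored were 1415 to 1779 bp wide, were called in all 5 samples and were 2.02-fold to 3.65-fold higher by ATAC-seq. At chr2R:6469892-6471361, which overlaps a CTCF peak, ATAC-seq had 701, 626 and 825 CPM and FAIRE-seq 305 and 229 CPM (log2 fold change 1.43, SE 0.24). At chr3R:25666559-25667973, ATAC-seq had 796, 611 and 781 CPM and FAIRE-seq 235 and 166 CPM (log2 fold change 1.87, SE 0.25). All 5 were called in the same direction in tumors. High peaks in favor of FAIRE-seq were few, 25 among the highest 10% of peaks. The highest, at chrX:8188225-8189878, had 131, 91.4 and 69.8 CPM by ATAC-seq and 593 and 409 CPM by FAIRE-seq (log2 fold change -2.36, SE 0.27), and in the early and late tumors 183 and 211 CPM by ATAC-seq and 675 and 648 CPM by FAIRE-seq. The next, at chr3L:3901765-3902826, had 79.7, 76.5 and 47.2 CPM by ATAC-seq and 224 and 125 CPM by FAIRE-seq. Of the 5 highest peaks that FAIRE-seq favored, 4 were called in the same direction in tumors, while chr3R:19015959-19017387 had a log2 fold change of -0.99 in wild type and 0.39 in tumors. The last of these 5 to pass the threshold, chrX:5773561-5774718, had an adjusted p of 0.00973 from edgeR.

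Chromosome 4, a small and largely heterochromatic chromosome, had the lowest median of the 6 arms. Over its 374 peaks the log2 fold change had a median of -0.58, and 14 were higher by ATAC-seq (3.74%) and 105 were higher by FAIRE-seq (28.1%). The other arms had medians between -0.07 and 0.06, with 9.56% to 10.7% of their peaks higher by ATAC-seq and 11.8% to 13.7% by FAIRE-seq. The chromosome 4 median was lower than that of chromosomes 2 and 3 by 0.56, and by 0.47 to 0.65 when any 1 sample was left out. It was -0.81 in tumors and -0.52 in FRT82 alone. Its peaks had the lowest median width of the 6 arms, with 231 bp against 269 bp over all peaks and 264 to 274 bp on the other arms. By width, its median log2 fold change was -1.07 under 200 bp, -0.40 at 200 to 400 bp, 0.13 at 400 to 800 bp and 0.21 at 800 to 1600 bp. Over all peaks these classes had -0.44, -0.06, 0.43 and 0.69, so that chromosome 4 lay lower in each of them. As a share of all reads, chromosome 4 held 0.819%, 0.780% and 1.04% of the ATAC-seq reads (FRT82, DGRP-208, Optix-GFP) and 1.03% and 1.19% of the FAIRE-seq reads (FRT82, CantonS). These shares overlapped, with an exact permutation p of 0.3 (two-sided, n = 3 and 2) and, with tumors, of 0.075 (adjusted 0.117).

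The read share of chromosome X overlapped between techniques. The arm held 13.6%, 16.6% and 18.2% of the ATAC-seq reads and 15.3% and 16.3% of the FAIRE-seq reads (exact permutation p = 0.8, two-sided, n = 3 and 2). The ATAC-seq samples alone spanned both FAIRE-seq values, with FRT82 the lowest and Optix-GFP the highest. The direction accordingly turned on single samples: the difference of the mean shares, ATAC-seq minus FAIRE-seq, was 0.310 percentage points with all samples, -0.74 points without Optix-GFP and 1.58 points without FRT82 ATAC-seq. In tumors X held 13.8% and 14.96% of the ATAC-seq reads and 17.4% and 17.7% of the FAIRE-seq reads. The shares of 2L, 2R, 3L and 3R overlapped between techniques in the wild type samples as well.

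Peaks that overlapped a CTCF ChIP-seq peak had a higher median ratio of ATAC-seq over FAIRE-seq than other peaks, but a lower one at the same width. A merged peak was counted when it covered at least 40% of 1 of the 3679 CTCF peaks, which held for 2119. Their median log2 fold change was 0.19, with 16.8% higher by ATAC-seq and 13.0% by FAIRE-seq, against -0.02 in the other 34387 peaks, with 9.52% and 13.2%. They were also wider and higher, with a median width of 459 bp against 259 bp, and median levels of 43.9 CPM by ATAC-seq and 39.8 CPM by FAIRE-seq against 10.9 and 12.5 CPM. Within each width class the CTCF peaks lay lower than the others: -0.82 against -0.44 under 200 bp, -0.22 against -0.05 at 200 to 400 bp, 0.37 against 0.44 at 400 to 800 bp, 0.62 against 0.71 at 800 to 1600 bp and 0.27 against 0.73 in the widest class, which held 14 CTCF peaks. In the narrow classes the calls by FAIRE-seq differed: under 200 bp 33.6% of the CTCF peaks and 19.2% of the others were higher by FAIRE-seq, and at 200 to 400 bp 21.5% and 13.7%. At 800 to 1600 bp the shares higher by FAIRE-seq were 2.04% and 2.16%, and those higher by ATAC-seq were 31.4% of the CTCF peaks and 38.5% of the others. At 200 to 400 bp the difference was -0.17, and -0.23 to -0.10 when any 1 sample was left out. It was -0.0559 among peaks called by both techniques and -0.25 when an overlap of 1 bp was enough. In tumors the CTCF peaks had the lower median in each width class. In FRT82 alone they had it in each class except 400 to 800 bp, with 0.36 against 0.34. Peaks are not replicates, and no test of these medians was made.

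In the wild type samples the CTCF peaks also had the lower median within each of 3 classes of height. In the lowest class, 100 CTCF peaks had a median of -0.97 and 33.0% were higher by FAIRE-seq, against -0.49 and 20.2% of the other peaks. In the middle class, 447 CTCF peaks had a median of -0.66 and 32.4% were higher by FAIRE-seq, against -0.09 and 14.2% of the other peaks, and the tumor libraries gave -0.46 against -0.11. In the highest class, which held 1572 CTCF peaks, the medians were 0.37 and 0.46. The tumor libraries gave 0.34 for CTCF peaks and 0.33 for the others there, and -0.47 against -0.20 in the lowest class. Over the 10 classes of height, CTCF peaks had the lower median in all but the lowest, which held 13 of them. Over all peaks, CTCF peaks held 13.4%, 13.1% and 14.4% of the ATAC-seq reads and 12.3% and 13.1% of the FAIRE-seq reads. The groups did not overlap, but the lowest ATAC-seq sample exceeded the highest FAIRE-seq sample by little (13.14% in DGRP-208 ATAC-seq and 13.08% in CantonS FAIRE-seq), and the exact permutation p was 0.2 with 5 samples (two-sided, n = 3 and 2) and 0.05 with 9, adjusted 0.0875.

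**Figure D4:**
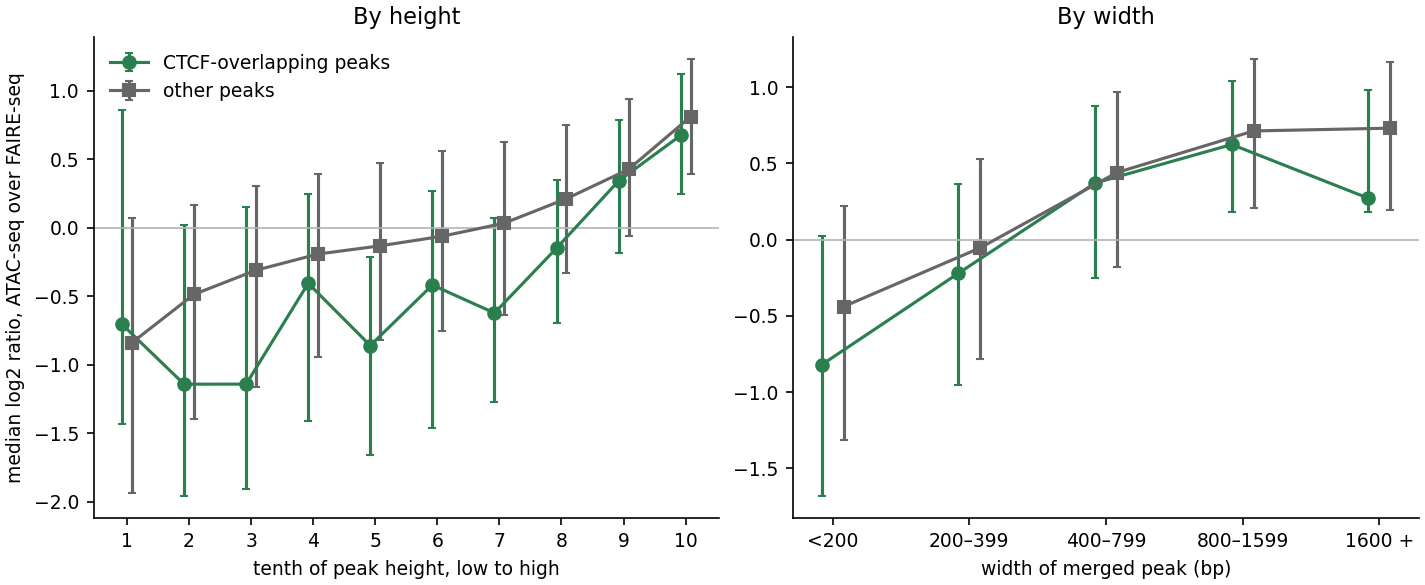
Median log2 ratio of ATAC-seq over FAIRE-seq, with quartiles, for merged peaks that cover at least 40% of a CTCF peak and for all other merged peaks, by classes of 10% of the peaks from the lowest to the highest (left) and by width class in bp (right). At 200 to 400 bp the CTCF peaks have -0.22 and the others -0.05, and the CTCF peaks lie below the others in every class except the lowest height class.

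In the single samples the authors called more peaks by ATAC-seq than by FAIRE-seq. They called 24875, 23418 and 22750 peaks by ATAC-seq (FRT82, DGRP-208, Optix-GFP), covering 7.30, 6.64 and 6.195 Mb, and 17138 and 20557 by FAIRE-seq (FRT82, CantonS), covering 4.17 and 5.35 Mb. The median width of the called peaks overlapped, with 228, 219 and 212 bp by ATAC-seq and 204 and 216 bp by FAIRE-seq (exact permutation p = 0.4, two-sided). The number of calls did not overlap (exact permutation p = 0.1), but the FAIRE-seq sample with the fewest peaks also had the fewest reads. Of the merged peaks, 15955 were called in at least 1 wild type sample of each technique, 9915 in ATAC-seq samples only, 3230 in FAIRE-seq samples only and 7406 in no wild type sample. The counts did not follow these calls equally: 10.6% of the peaks called in ATAC-seq samples only were higher by ATAC-seq, while 65.3% of those called in FAIRE-seq samples only were higher by FAIRE-seq. Calls and counts come from the same reads, so that this is no independent measure. Of the peaks called in no wild type sample, 15 were higher by ATAC-seq and 1465 by FAIRE-seq (19.8%), with median levels of 3.02 CPM by ATAC-seq and 5.40 CPM by FAIRE-seq. Among CTCF peaks called in FAIRE-seq samples only, 98 of 117 were higher by FAIRE-seq (83.8%), against 64.6% of the others.

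Among the 485 merged peaks that the study paired with a gene, those of ecdysone genes were mostly higher by ATAC-seq, and those of eye genes were higher by ATAC-seq or did not pass. The study chose these regions for opening or closing in tumors relative to these wild type samples, so that their direction here is not independent evidence. Of the 276 regions that closed in tumors, 133 were higher by ATAC-seq (48.2%) and 1 by FAIRE-seq, with a median log2 fold change of 1.02. Of the 209 that opened, 6 were higher by ATAC-seq and 53 by FAIRE-seq (25.4%), with a median of -0.75. Over all peaks the corresponding shares were 9.94% and 13.2%. In the tumor libraries the median log2 fold change was 0.09 over the regions that closed and 0.39 over those that opened.

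Of 21 peaks paired with genes of eye and antenna patterning, 8 were higher by ATAC-seq (38.1%) and 13 did not pass the threshold. Their median log2 fold change was 0.84, against -0.0047 over all peaks. The gene-paired peaks that closed in tumors had a median of 1.02, with 48.2% higher by ATAC-seq. Those that opened had a median of -0.75, with 2.87% higher by ATAC-seq. The list was drawn from these sets, so that its difference from all peaks cannot be told apart from that choice. By edgeR and by DESeq2 none of the 21 listed peaks was higher by FAIRE-seq, and 20 of them had a log2 fold change above 0. All 21 were called as peaks in at least 1 ATAC-seq sample and 11 in FAIRE-seq too. Of the 276 gene-paired peaks that closed in tumors, 1 was called in no wild type ATAC-seq sample, and of the 209 that opened, 128 were. The peak of *so*, a homeodomain transcription factor required for eye formation, had 90.0, 99.5 and 119 CPM by ATAC-seq and 25.5 and 20.6 CPM by FAIRE-seq (log2 fold change 2.17, SE 0.27, adjusted p = 6.3e-05) and was called in no FAIRE-seq sample. The peak of *hth*, a homeodomain factor of the antenna and the anterior eye field, had 203, 179 and 228 CPM by ATAC-seq and 44.8 and 54.5 CPM by FAIRE-seq. In both, the lowest ATAC-seq sample was more than 3 times the highest FAIRE-seq sample. The Iroquois factor *ara* (1.98), the Notch ligand *Ser* (1.81), the EGFR ligand protease *rho* (1.74), the R7 photoreceptor receptor *sev* (1.29), the nuclear factor *dac* (1.17) and the BTB factor *bab1* (1.15) were the other 6 called, with the log2 fold change in parentheses. The peak of *ara* varied between ATAC-seq samples, with 88.5, 127 and 243 CPM by ATAC-seq against 28.1 and 48.0 CPM by FAIRE-seq. Among those not called, *eya*, a cofactor of *so*, had 41.2, 32.7 and 41.4 CPM by ATAC-seq and 22.2 and 20.8 CPM by FAIRE-seq (log2 fold change 0.84, adjusted p = 0.0211). The peaks of *bab2* (-0.03) and *eyg* (0.07) had nearly the same level by both techniques. Only 2 of the 21 passed the threshold without CantonS FAIRE-seq, and 4 without FRT82 FAIRE-seq or with total reads. In tumors the list had a median of 0.20, and 2 of the 21 were called, both higher by ATAC-seq.

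Ecdysone is the steroid signal that times larval and disc development. Of 11 peaks paired with genes of its response, 8 were higher by ATAC-seq (72.7%) and 1 by FAIRE-seq (9.09%), with a median of 1.19. For all gene-paired peaks these shares were 48.2% and 0.362% among those that closed in tumors, with a median of 1.02. They were 2.87% and 25.4% among those that opened. The peak of *Blimp-1*, an ecdysone-induced transcription factor, had 233, 194 and 217 CPM by ATAC-seq and 58.8 and 46.7 CPM by FAIRE-seq (log2 fold change 2.03, SE 0.25), and that of the nuclear receptor *Eip78C* had 111, 104 and 142 CPM by ATAC-seq and 39.6 and 31.8 CPM by FAIRE-seq (1.75). The peaks of *Cyp18a1*, which inactivates ecdysone (1.29), *ImpE3* (1.23), *ImpE1* (1.23), *ImpE2* and *Eip63E*, which share 1 peak (1.19), the nuclear receptor *Hr39* (1.08) and the ETS factor *Eip74EF* (1.06) were also higher by ATAC-seq. The exception was *ftz-f1*, a nuclear receptor of the prepupal response. Its peak at chr3L:18784032-18784852 had 9.25, 13.4 and 6.13 CPM by ATAC-seq and 47.7 and 40.8 CPM by FAIRE-seq (log2 fold change -2.19, SE 0.31, adjusted p = 0.000131), was called in both FAIRE-seq samples and in no ATAC-seq sample, and is 821 bp wide, a width at which few peaks were higher by FAIRE-seq. In tumors both techniques saw it, with 120 and 84.8 CPM by ATAC-seq and 101 and 91.0 CPM by FAIRE-seq. The peaks of the ABC transporter gene *E23* (0.82) and the ecdysone importer gene *Oatp74D* (0.78) did not pass. Without CantonS FAIRE-seq 1 peak was higher by ATAC-seq and 1 by FAIRE-seq, without FRT82 FAIRE-seq 4 and 1, and with total reads 2 and 1. In tumors the list had a median of 0.27, and 3 of the 11 were called, all higher by ATAC-seq.

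Peaks of genes of the stress, growth and immune response had no common direction. Of 17, 2 were higher by ATAC-seq, 2 by FAIRE-seq and 13 did not pass, with a median of -0.47. These calls were 11.8% of the list each way, near the 9.94% and 13.2% over all peaks. The peak of *os*, which encodes the JAK/STAT ligand Upd, had 106, 102 and 159 CPM by ATAC-seq and 37.0 and 28.4 CPM by FAIRE-seq (log2 fold change 1.91), and that of the cell death gene *rpr* was higher by ATAC-seq by 0.92. The peak of *Imp*, an RNA-binding protein, had 8.02, 10.6 and 5.97 CPM by ATAC-seq and 32.2 and 26.6 CPM by FAIRE-seq (log2 fold change -1.83), and that of *p53* had 2.31, 2.55 and 2.15 CPM by ATAC-seq and 7.77 and 7.18 CPM by FAIRE-seq (-1.66). Both were called as a peak in no wild type ATAC-seq sample, as were 11 of the 17. In tumors *p53* had 35.6 and 53.9 CPM by ATAC-seq and 19.0 and 41.7 CPM by FAIRE-seq, the opposite sign (0.61), although it was not called there. The JNK phosphatase gene *puc* had 17.95, 18.01 and 17.4 CPM by ATAC-seq and 34.8 and 22.5 CPM by FAIRE-seq (log2 fold change -0.67, adjusted p = 0.0708). Of the 17, none passed without CantonS FAIRE-seq, and 1 higher by ATAC-seq and 6 higher by FAIRE-seq passed with total reads. In tumors the list had a median of 0.61, with 8 peaks higher by ATAC-seq and 2 higher by FAIRE-seq, 3 of these 10 against their sign in wild type.

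**Figure D5:**
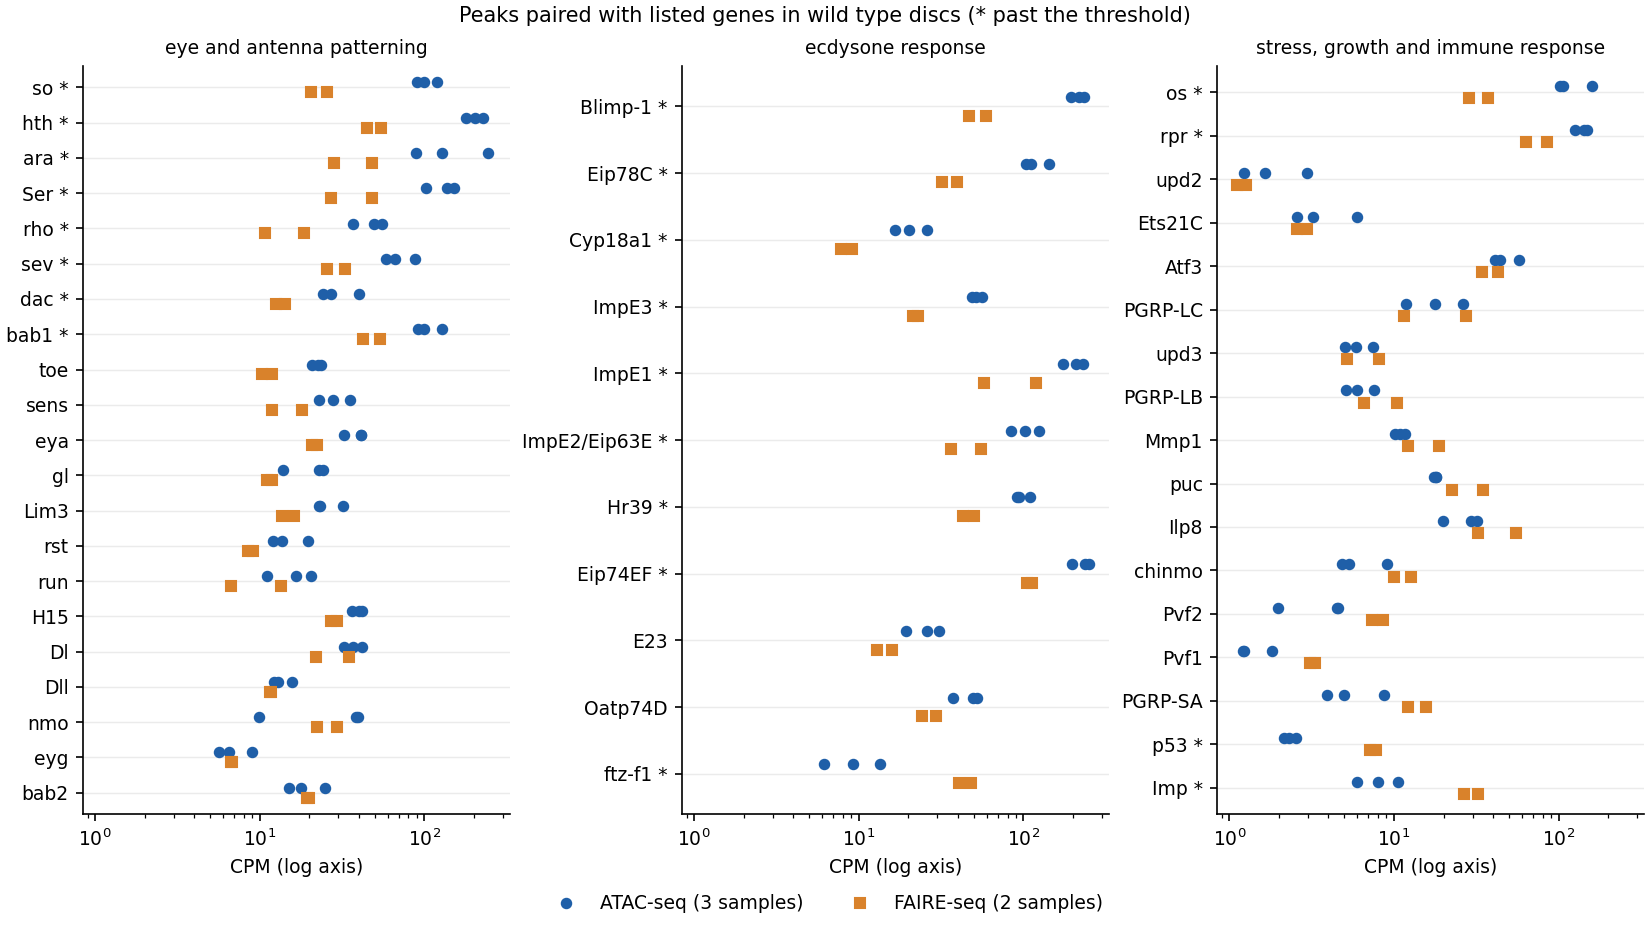
CPM on a log axis in each wild type sample for the merged peaks paired with genes of 3 lists, with ATAC-seq samples in blue and FAIRE-seq samples in orange, and an asterisk where the adjusted p was under 0.01. For *so*, *hth* and *Blimp-1* all 3 ATAC-seq samples lie above both FAIRE-seq samples, while *ftz-f1* has 6.13 to 13.4 CPM by ATAC-seq and 40.8 and 47.7 CPM by FAIRE-seq.

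Over all gene-paired peaks, the largest differences in favor of ATAC-seq were at *pk*, a planar polarity gene, *futsch*, which encodes a microtubule-associated protein, CG7080, the formin gene *DAAM* and the zinc finger gene *jing*. The peak of *pk* had 221, 180 and 270 CPM by ATAC-seq and 42.6 and 36.6 CPM by FAIRE-seq (log2 fold change 2.50, SE 0.27), a 5.67-fold difference. The peak of *futsch* was the most variable of the 5, with 294, 308 and 663 CPM by ATAC-seq and 95.1 and 65.9 CPM by FAIRE-seq (log2 fold change 2.40). All 5 were called as peaks in all 5 samples. The largest differences in favor of FAIRE-seq were at low peaks, CG4998 (-3.13), CG4957 (-2.87), the retinoid-binding protein gene *pinta* (-2.81), CG8369 (-2.69) and CG4267 (-2.65), none of them called as a peak by ATAC-seq. The peak of CG4957 did not pass (adjusted p = 0.0135), with 5.98, 1.61 and 1.33 CPM by ATAC-seq and 11.1 and 32.0 CPM by FAIRE-seq, as both techniques spread widely there.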

How the data were processed

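The authors sequenced single-end libraries and mapped reads to dm3 with Bowtie2 after CASAVA 1.8.2, discarded poorly mapped and Wolbachia reads, called peaks per sample with MACS2, merged them over all samples and counted reads per merged peak with HTSeq. ATAC-seq reads were centered on the cut site. The values used are the deposited raw counts per merged peak, with the deposited peak positions of each sample and of CTCF ChIP-seq, which hold no score. Groups came from the sample labels. Depth ranged from 2375435 to 8256157 reads in merged peaks.

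Counts of the 3 ATAC-seq and 2 FAIRE-seq wild type samples were tested with edgeR 4.0.16 (R 4.3.3; TMM, robust quasi-likelihood F-test, all peaks with a count above 0, Benjamini-Hochberg adjustment). The study used DESeq2, here version 1.42.0 as an alternative. The standard error is that implied by the F statistic. In counts simulated for this comparison over 36506 peaks, 200 peaks were changed. The test recovered 14.06%, 69.57% and 97.01% of those changed by 1, 2 and 3 on the log2 scale, with 1 false call. In the data 23.1% of the peaks were called, and the adjustment depends on how many peaks change. These rates therefore do not give the power of the test on the data. Overlaps were made with bedtools 2.31.1. Exact permutation tests went through all splits, and their p-values for the read shares were adjusted with scipy 1.17.1. For each sample, read shares were tested over 14 classes. Floors and intervals cover counting error only.

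Members, lists and tests were chosen with earlier results of these data known. Named regions were the 10 largest differences each way among called peaks with a mean of at least 10 counts and no overlap between techniques, the 5 highest called peaks each way, the 5 largest differences each way among gene-paired peaks, and members of 3 gene lists. All 497 gene symbols of the study's pairs were found in RefSeq names or synonyms. Gene structure around the regions and their sequences were not used here.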

Additional observations from a re-analysis of the deposited data

Results flagged for a closer look

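At 4 of the 36506 peaks (0.011%) the technique difference itself differed between tumors and wild type in an edgeR quasi-likelihood test of the interaction over 9 samples, chosen after seeing the data, and at all 4 the log2 ratio of ATAC-seq over FAIRE-seq was higher in tumors. With no adjustment, 6300 peaks (17.3%) had p under 0.05. At chr3R:9830603-9831260 the log2 ratio was 0.50 in tumors and -2.37 in wild type, a difference of 2.85 (adjusted p = 0.00545), and this was the peak among the 4 that was called in wild type. At chr3L:6456314-6457523 it was 2.04 in tumors and -0.77 in wild type, a difference of 2.76 (adjusted p = 0.00342). At chr3R:27246227-27246809 it was 1.75 in tumors and -0.85 in wild type, a difference of 2.58 (adjusted p = 0.00545). At chr2L:1424654-1425411 it was 1.93 in tumors and -0.51 in wild type, a difference of 2.44 (adjusted p = 0.00788). The tumor comparison has 1 library per stage and technique.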

How the results depend on the processing

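No call turned to the opposite technique under any alternative run. The runs reuse the same counts, and the techniques did not overlap at any called peak, so that a change of direction was hardly possible. Main counts were 3630 peaks higher by ATAC-seq and 4816 by FAIRE-seq. They were 1721 and 8011 with total reads, where ATAC-seq made up 17.7% of the calls against 43.0%, 4397 and 4168 (51.3%) with DESeq2's Wald test, and 1884 and 1728 (52.2%) among the 15955 peaks called by both techniques. Leaving out 1 sample gave 147 to 3466 and 729 to 4414, the lowest without CantonS FAIRE-seq, where the lone FAIRE-seq sample is assumed to vary like the ATAC-seq samples. In tumors, 2991 and 9763 peaks were called with total reads and 3330 and 2711 with DESeq2, against 5937 and 5772.

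Between the highest and the lowest 10% of peaks by height the log2 difference was 1.63 (1.28 to 1.86 with 1 sample left out), 0.95 among peaks called by both techniques and 0.52 with height from the tumor samples. Chromosome 4 minus 2 and 3 was -0.56, and -0.34 among peaks called by both. CTCF minus other peaks was 0.21 (0.14 to 0.26 with 1 sample left out), 0.0886 among peaks called by both and 0.0491 with an overlap of 1 bp. Among peaks called by both, the read share differences in percentage points, ATAC-seq minus FAIRE-seq, were -1.04 under 200 bp (-4.37 over all peaks), 2.13 at 400 to 800 bp (4.59), 0.242 at 1600 bp or more (0.274), 10.04 in the highest 10% (12.8) and -9.32 in the lower 50% (-6.13). The cause of these shifts was not tested. Of 59 named called peaks, 56 kept their call without any 1 ATAC-seq sample, 37 without FRT82 FAIRE-seq, 26 without CantonS FAIRE-seq and 46 with total reads. The 3 Mb bins, heights per length, width within height, CTCF within height and within called peaks, paired widths and the tumor interaction were added after seeing the data.

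No paired analysis was possible because the labels give the wild type samples no replicate numbers and only FRT82 was measured by both techniques. With a term for FRT82 against all other strains, 3586 and 4889 peaks were called. In simulated counts at these depths, with 3 against 2 samples and 200 peaks changed, 14.06% of peaks changed by 1 on the log2 scale were recovered. Far more peaks were called in the data, so that this rate is not the power of the test there.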

Other observations

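Along the 5 long arms the technique difference varied by region. In 41 bins of 3 Mb with at least 100 peaks, the wild type and tumor medians of the log2 fold change had the same sign in 32, with a Pearson r of 0.64 over bins, as a description. The lowest bin was 2L from 9 to 12 Mb, with a median of -0.33, where 7.34% of the 845 peaks were higher by ATAC-seq and 21.4% were higher by FAIRE-seq. At the other end was 3R from 27 to 30 Mb, with a median of 0.45, 14.6% higher by ATAC-seq and 5.62% higher by FAIRE-seq.

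Where 1 ATAC-seq peak overlapped exactly 1 FAIRE-seq peak, their widths were similar. In FRT82, 12286 such peaks had a median of 279 bp by ATAC-seq against 218 bp by FAIRE-seq, and 67.5% were wider by ATAC-seq. Between Optix-GFP ATAC-seq and CantonS FAIRE-seq, 44.7% were wider by ATAC-seq. Over the 6 pairs of samples the median width ratio was between 0.955 and 1.18, highest with FRT82 FAIRE-seq, the sample with the fewest reads.

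Ranked by CPM per kb, the lowest 10% of peaks had a median log2 fold change of -1.12 and the highest 10% a median of 0.69.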
